A study of Mus musculus with 2 samples.

Results

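Complement is a set of plasma and cell-surface proteins that coat microbes, dead cells and debris for removal. In the classical pathway the C1 complex, made of C1q and the proteases C1r and C1s, cleaves C4 and C2, and the product cleaves C3. In the alternative pathway factor B joins cleaved C3 and is cut by factor D, which adipocytes secrete and which is also called adipsin. The liver makes most circulating complement, but macrophages are the usual source of C1q, and fibroblasts, mesothelial cells and fat tissue produce several of the other components.

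The 9 genes described here code for these components: C1qa, C1qb and C1qc for the chains of C1q, C1ra and C1s1 for the C1 proteases, C4b for C4, C3 for the central component, Cfb for factor B and Cfd for factor D. They were chosen by symbol from the 32285 genes of 2 single-cell RNA-seq libraries, and all 9 were present. The cells were live eYFP+ cells sorted from the stromovascular fraction (SVF) of perigonadal white adipose tissue (gWAT), which is the tissue left once adipocytes are spun away. The donors were male mice of the genotype Cyp1a1Cre x R26LSL-eYFP, in which Cre driven by the Cyp1a1 promoter permanently marks any cell that has activated Cyp1a1, which the aryl hydrocarbon receptor (AHR) induces. For 12 weeks they ate a diet with 10% fat (LFD) or with 60% fat (HFD). FICZ, an AHR ligand, was given to both groups at 10 mg/kg, 5 days ahead of the collection. Cells that had never activated Cyp1a1 were sorted away, so the libraries do not describe the whole SVF. The general methods start diets in young mice, and no age is given for these mice in particular.

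There was 1 library per diet, made from pooled mice, and no label tied a cell to a mouse. Every difference below therefore compares single libraries without replicates, no test between diets was possible, and intervals are 95% intervals that cover counting error only. After filtering, the LFD library held 9294 cells with a median of 10214 UMIs (unique molecule counts) and the HFD library 7879 cells with a median of 12709 UMIs, and 27 cell barcodes were shared. The cells were clustered without any complement gene and the clusters were named from marker lists. The names ending in -like rest on those markers alone. The type called Wt1+ stroma-like also had 10 of the 12 adipose progenitor (APC) markers and 6 of the 10 mesothelial markers at a high level, while no listed marker stood among its 10 leading genes. The marker lists overlapped in other stromal types as well, since mesothelial-like and cycling stroma-like cells each had 10 of the 12 APC markers at a high level and 9 of the 10 mesothelial ones. The mural-like cluster also had all 8 endothelial markers and 9 of the 12 APC markers at a high level, so its levels cannot be read as those of mural cells alone. The other stromal types were mesothelial-like, cycling stroma-like and APC-like cells. Wt1 was at a high level in each of these too, so it does not set Wt1+ stroma-like cells apart. Levels are CPM, the summed counts of a type scaled to a total of 1000000. Some RNA in any droplet comes from other, broken cells, so each level was set beside a free RNA estimate, the level that the gene would have if it leaked as immunoglobulin RNA (into stromal cells) or collagen RNA (into other cells) did.

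The 9 genes fell into 3 patterns across cell types. The C1q chains were almost confined to macrophage-like cells, which held 97.9% to 98.7% of the counts of each chain in each library. Among the named types C1ra, C1s1, C3 and Cfb were highest in the 4 stromal types. C4b was highest in APC-like cells too, but macrophage-like cells stood above several of the other stromal types. Cfd was measured chiefly in LFD endothelial-like cells (73.8 CPM), with an overlapping interval in LFD neutrophil-like cells (54.6 CPM from 14 counts) and 74.4 CPM from 6 counts in the 12 LFD mural-like cells. Cfd in LFD neutrophil-like cells was 75.8 CPM without doublet removal, where that type was the highest. Among types with at least 50 cells the highest was the same in both libraries for 8 of the 9 genes, and the exception was Cfd, which had 36 counts in the whole filtered HFD library.

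**Figure D1:**
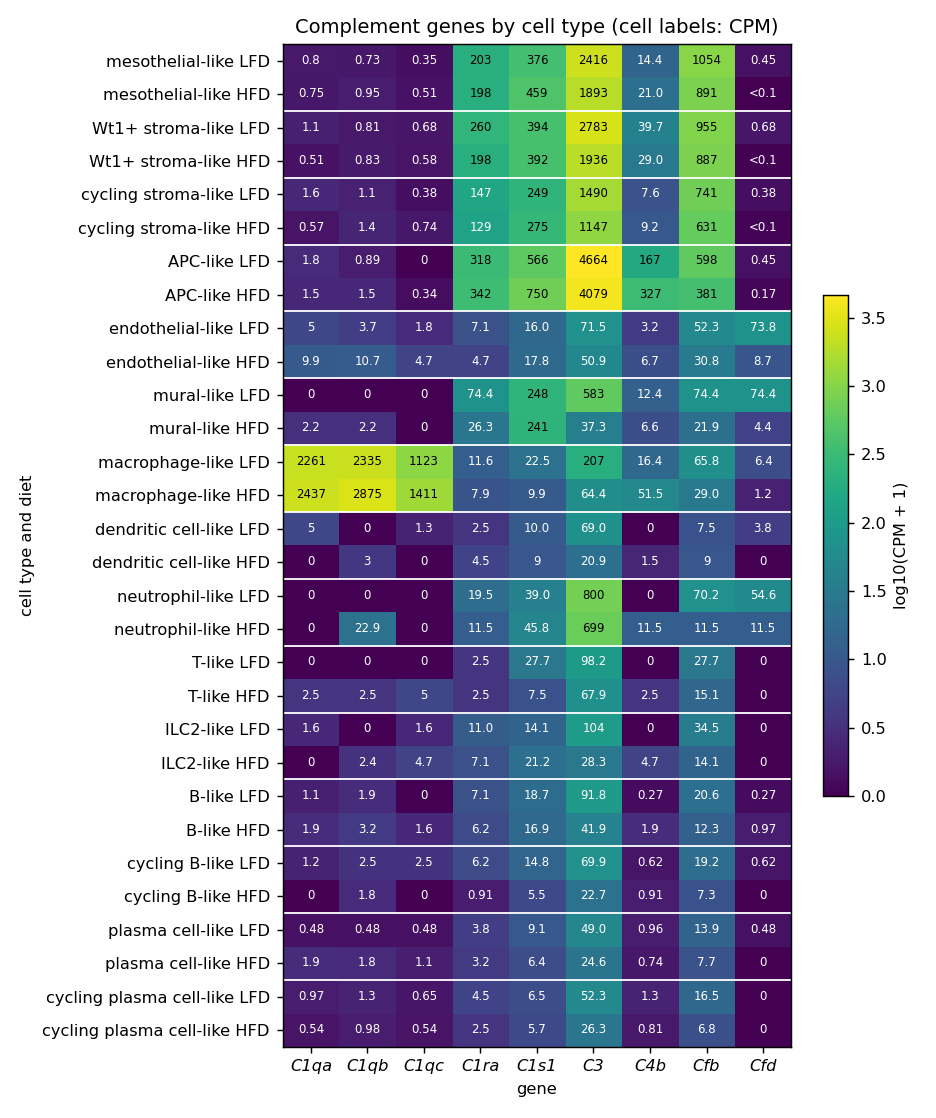
Level of each of the 9 genes (columns) in each of 15 cell types and 2 diets (rows), as log10(CPM + 1) in colour and CPM in figures. The C1q chains stood above 1000 CPM in the macrophage-like rows and at most 22.9 CPM elsewhere, whereas C3 was above 1000 CPM in each stromal row. The mural-like LFD row rests on 12 cells.

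For 6 of the 9 genes the stretch before the transcription start could be read from RefSeq (build GRCm38.p6), and 3 are shown, 1 for each pattern of expression. Each has the 250 bases before the start, read on the gene's strand. Capitals mark matches, on either strand, to the AHR and ARNT core GCGTG, the C/EBP-type string TTGCNNAA, the PU.1 and ETS core GAGGAA or the TATA box TATAAA. None of these motifs overlapped in the windows shown.
C1qb: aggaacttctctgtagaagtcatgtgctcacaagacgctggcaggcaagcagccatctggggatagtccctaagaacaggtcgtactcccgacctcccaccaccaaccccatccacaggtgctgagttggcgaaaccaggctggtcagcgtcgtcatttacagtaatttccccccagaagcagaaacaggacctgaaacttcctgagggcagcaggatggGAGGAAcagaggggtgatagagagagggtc
C3: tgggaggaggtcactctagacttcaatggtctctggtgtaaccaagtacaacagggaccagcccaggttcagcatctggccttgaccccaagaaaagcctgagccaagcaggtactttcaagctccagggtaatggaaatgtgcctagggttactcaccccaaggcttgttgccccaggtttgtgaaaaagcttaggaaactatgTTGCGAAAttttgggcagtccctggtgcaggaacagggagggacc
Cfd: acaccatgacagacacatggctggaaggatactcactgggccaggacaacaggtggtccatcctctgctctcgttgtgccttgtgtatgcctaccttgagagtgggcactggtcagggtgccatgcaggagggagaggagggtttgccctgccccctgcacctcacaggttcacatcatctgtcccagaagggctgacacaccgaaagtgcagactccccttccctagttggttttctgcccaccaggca
The C1qb window (chr4:136886201-136886450, minus strand) held GAGGAA from 30 bases before the start. The C3 window (chr17:57228137-57228386, minus strand) held TTGCGAAA from 45 bases before the start, and the Cfd window (chr10:79890603-79890852, plus strand) held none of the 4. Of 32536 distinct windows of this length, 23.4% held GAGGAA, 9.57% held TTGCNNAA, 28.3% held GCGTG and 12.3% held TATAAA, so each match is also common elsewhere. A match is a string of letters and no evidence of binding.

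C1q recognises antibody bound to a target and other ligands, and its chains are made by genes that lie side by side on the minus strand of chromosome 4 (GRCm38). C1qb spans chr4:136880129-136886187, C1qc chr4:136889804-136893065 and C1qa chr4:136895917-136898803. In the 591 LFD macrophage-like cells C1qa stood at 2261 CPM (2202 to 2321), and in the 528 HFD cells at 2437 CPM (2385 to 2490). C1qb went from 2335 CPM (2275 to 2396) to 2875 CPM (2819 to 2933), and C1qc from 1123 CPM (1082 to 1166) to 1411 CPM (1372 to 1452). All 3 chains were thus somewhat higher in the HFD library, although C1qa was lower there under a stricter cell filter (ratio 0.932). The HFD to LFD ratio was 1.08 (1.04 to 1.12) for C1qa, 1.23 (1.19 to 1.27) for C1qb and 1.26 (1.20 to 1.32) for C1qc, beside a median ratio of 1.06 over all genes with at least 20 counts over both libraries.

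The share of macrophage-like cells with a UMI of all 3 chains was 63.6% in LFD and 81.4% in HFD, and 17.3% and 10.0% had none of the chains. The HFD cells were deeper, with a median of 6224 UMIs against 4277. C1qb had a UMI in 74.6% of LFD and 88.1% of HFD macrophage-like cells, against 0.648% and 1.41% of B-like cells (medians of 3715 and 4015 UMIs), which should lack it. With each cell thinned to 1000 UMIs, which left out 30 LFD and 12 HFD cells, the share of cells with C1qb was 63.1% (59.0 to 67.1%) in LFD and 79.7% (75.9 to 83.0%) in HFD, with intervals that did not overlap. Thinned shares for C1qa were 63.1% and 70.7%. Of all C1q counts in macrophage-like cells, C1qa made up 39.5% in LFD and 36.2% in HFD, while C1qb made up 40.8% and 42.8%, and C1qc 19.6% and 20.99%.

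Lyve1 marks a resident subset of macrophages, and it had a UMI in 15 LFD and 76 HFD macrophage-like cells. The chains were higher in those cells, with C1qa at 4745 CPM (LFD) and 4107 CPM (HFD) against 2196 and 2188 CPM in macrophage-like cells without a Lyve1 UMI. In the latter the diet ratio was 0.997 (0.961 to 1.03) for C1qa, 1.20 (1.16 to 1.24) for C1qb and 1.18 (1.12 to 1.24) for C1qc. The difference between libraries for C1qa was thus not seen once the cells with a Lyve1 UMI were set aside, whereas those for C1qb and C1qc were.

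Outside macrophage-like cells the chains were low. Across the stromal, B-like and plasma cell-like types they did not exceed 3.25 CPM, and the highest level elsewhere, 22.9 CPM of C1qb in HFD neutrophil-like cells, rested on 2 counts. In HFD endothelial-like cells C1qa reached 9.87 CPM and C1qb 10.7 CPM, but a single cell held 88.0% of the 25 C1qa counts and 77.8% of the 27 C1qb counts. These levels were 4.44 and 4.05 times the free RNA estimate, and in LFD endothelial-like cells C1qa (4.99 CPM) was 2.55 times its estimate. In LFD APC-like cells C1qa was 0.162 times its estimate. The ratio of 2.90 for C1qb in endothelial-like cells rests largely on 1 cell. It was 1.68 without doublet removal, and so not past 2-fold, 4.75 with free RNA subtracted and 5.47 with each cell typed by itself.

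C1r and C1s are the proteases of the C1 complex. Their mouse genes lie near each other on chromosome 6, C1ra at chr6:124512405-124523443 on the plus strand and C1s1 at chr6:124530345-124542359 on the minus strand. Each has a close paralog, C1rb and C1s2, whose reads could be shared with it, and C1s1 overlaps exons of Gm16567 on the other strand. Both were stromal genes. In APC-like cells C1ra was 318 CPM (LFD) and 342 CPM (HFD), and it stood at 260 and 198 CPM in Wt1+ stroma-like cells, at 203 and 198 CPM in mesothelial-like cells and at 147 and 129 CPM in cycling stroma-like cells. The LFD order had no overlapping intervals among these 4 types, whereas in HFD the mesothelial-like and Wt1+ stroma-like levels could not be told apart. In HFD, C1ra was lower in Wt1+ stroma-like cells by a ratio of 0.762 (0.731 to 0.794), and in cycling stroma-like cells by 0.877 (0.822 to 0.935), while the interval spanned 1 in APC-like cells (1.08, 0.988 to 1.17) and mesothelial-like cells (0.976, 0.942 to 1.01).

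C1s1 did not follow C1ra between diets. It was highest in APC-like cells, with 566 CPM (LFD) and 750 CPM (HFD), which gave a ratio of 1.33 (1.25 to 1.41). Mesothelial-like cells had 376 and 459 CPM, a ratio of 1.22 (1.19 to 1.25), and Wt1+ stroma-like cells 394 and 392 CPM, a ratio of 0.995 (0.965 to 1.03). Mural-like cells, which wrap small vessels, had 248 CPM from 20 counts in 12 LFD cells and 241 CPM from 110 counts in 68 HFD cells, against free RNA estimates of 89.6 and 35.4 CPM. Cycling stroma-like cells had 249 and 275 CPM of C1s1, and the named types outside the stroma other than mural-like cells had at most 45.8 CPM in either library.

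C3 is the component on which the pathways converge, and its gene lies at chr17:57203970-57228136 on the minus strand. It was high throughout the stroma and was detected in at least 98.2% of the cells of each stromal type in either library. APC-like cells had 4664 CPM (LFD, 4575 to 4754) and 4079 CPM (HFD, 4027 to 4130), Wt1+ stroma-like cells 2783 and 1936 CPM, mesothelial-like cells 2416 and 1893 CPM, and cycling stroma-like cells 1490 and 1147 CPM. All 4 stromal types were therefore lower in HFD, none past 2-fold. The ratios were 0.875 (0.855 to 0.895) in APC-like, 0.783 (0.775 to 0.792) in mesothelial-like, 0.770 (0.754 to 0.786) in cycling stroma-like and 0.696 (0.687 to 0.705) in Wt1+ stroma-like cells.

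Among the blood-derived types C3 was highest in neutrophil-like cells. Their C3 level was 800 CPM (LFD, 694 to 917) and 699 CPM (HFD, 534 to 897), from 205 counts in 176 cells and 61 counts in 74 cells, against free RNA estimates of 163 and 98.1 CPM. With each cell thinned to 1000 UMIs, 51.1% of LFD and 40.9% of HFD neutrophil-like cells had a C3 UMI, beside 8.92% and 5.52% of B-like cells. The shares before thinning were 61.4% and 44.6%, thinning left out 39 LFD and 30 HFD neutrophil-like cells, and no cell held more than 5 C3 UMIs. There were 218 C3 counts per 100 Col1a1 counts in LFD neutrophil-like cells and 305 in HFD, against 29.4 to 67.8 in the stromal types and 94.0 and 129 in macrophage-like cells. These cells were shallow, with medians of 1264 and 1022 UMIs. The cluster also had 4 of the 12 APC markers at a high level (Dcn, Col1a1, Col1a2 and Col3a1).

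In B-like, plasma cell-like, T-like and ILC2-like cells C3 lay between 22.7 and 104 CPM, close to free RNA estimates of 17.2 to 98.3 CPM. In macrophage-like cells C3 was 207 CPM (LFD, 190 to 226) and 64.4 CPM (HFD, 56.1 to 73.5), a ratio of 0.310 (0.264 to 0.364). The free RNA estimate moved with it, from 93.4 to 26.0 CPM, as did Col1a1, from 221 to 50.03 CPM. After subtraction of the estimate the ratio was 0.337, and the part of free RNA in this difference was not tested further.

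**Figure D2:**
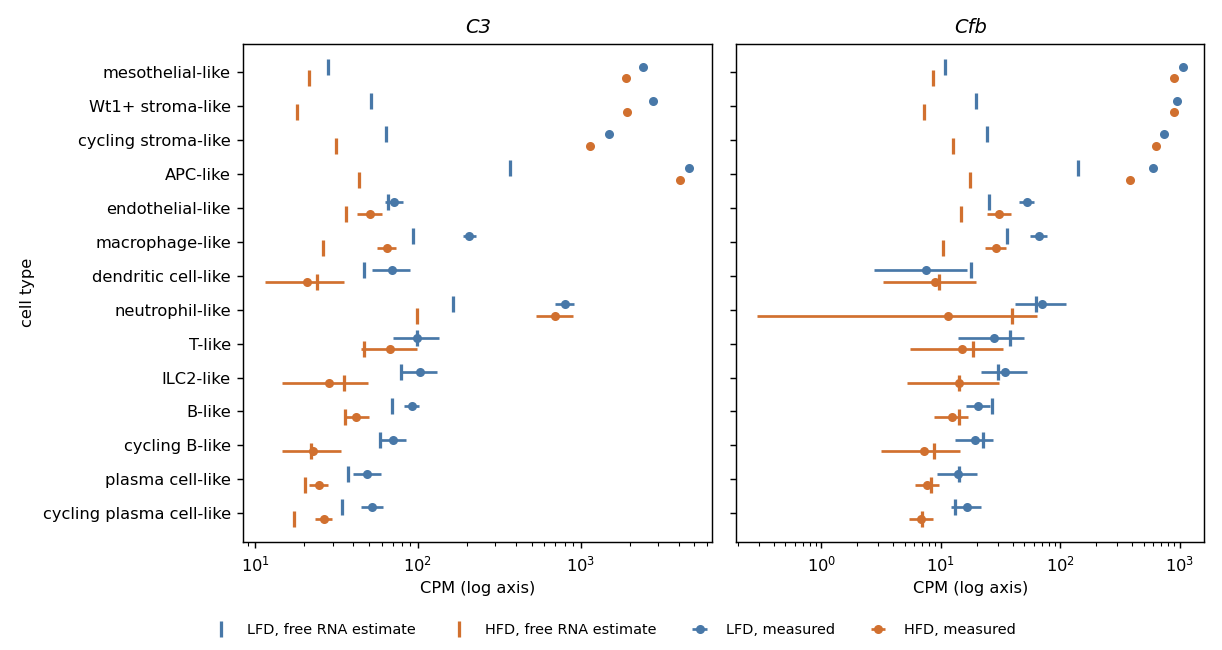
C3 (left) and Cfb (right) in CPM on a log axis by cell type, with LFD in blue and HFD in orange. Points are measured levels with 95% Poisson intervals and vertical ticks are free RNA estimates. The stromal types stood above their estimates, with Cfb in LFD APC-like cells the nearest at 4.25 times. Among the other types neutrophil-like cells stood farthest above theirs for C3, at 800 against 163 CPM in LFD.

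Factor B, the C3-binding protease of the alternative pathway, is made by Cfb at chr17:34856374-34862518 on the minus strand. Unlike C3 it was highest in mesothelial-like cells, with 1054 CPM (LFD, 1042 to 1066) and 891 CPM (HFD, 880 to 901). Wt1+ stroma-like cells followed with 955 and 887 CPM, cycling stroma-like cells with 741 and 631 CPM, and APC-like cells were lowest of the stroma with 598 and 381 CPM. In HFD the intervals of mesothelial-like and Wt1+ stroma-like cells overlapped. The order of these types also turned with the processing, since Wt1+ stroma-like cells were highest at clustering resolution 0.6 in both libraries (1132 and 1082 CPM) and in HFD under a stricter cell filter (912 CPM). APC-like cells had the lowest stromal ratio, 0.638 (0.596 to 0.683), beside 0.845 (0.832 to 0.859) in mesothelial-like and 0.929 (0.910 to 0.948) in Wt1+ stroma-like cells. The APC-like ratio is not corrected for free RNA, and Cfb there was 4.25 times its estimate in LFD but 21.8 times in HFD. In macrophage-like cells Cfb was 65.8 and 29.0 CPM, and the free RNA estimate again moved, from 35.8 to 10.4 CPM.

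C4 is cleaved by C1s. Its gene C4b (chr17:34728380-34743882, minus strand) has a close paralog, C4a, whose reads could be shared with it. C4b was highest in APC-like cells, with 167 CPM (LFD, 151 to 185) and 327 CPM (HFD, 313 to 342), a ratio of 1.95 (1.75 to 2.19) just under the 2-fold line. Mesothelial-like cells had 14.4 and 21.05 CPM, a ratio of 1.46 (1.29 to 1.65), and Wt1+ stroma-like cells had 39.7 and 29.0 CPM, a ratio of 0.729 (0.653 to 0.813). APC-like cells held 17.03% of all C4b counts in LFD and 56.4% in HFD, while their share of cells went from 2.28% to 7.18%.

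Macrophage-like cells also carried C4b. They had 41 counts in LFD (16.4 CPM, 11.8 to 22.3) and 176 counts in HFD (51.5 CPM, 44.2 to 59.7), a ratio of 3.13 (2.22 to 4.51), and the free RNA estimates were 1.06 and 0.675 CPM. The gene was concentrated in cells with a Lyve1 UMI, of which 10 of 15 in LFD and 40 of 76 in HFD had a C4b UMI. The level in those cells was 364 CPM (LFD, 231 to 546) and 267 CPM (HFD, 221 to 320), with overlapping intervals. In macrophage-like cells without a Lyve1 UMI the levels were 7.41 CPM (4.39 to 11.7) and 19.5 CPM (14.8 to 25.2), with a ratio of 2.63 (1.53 to 4.74).

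**Figure D3:**
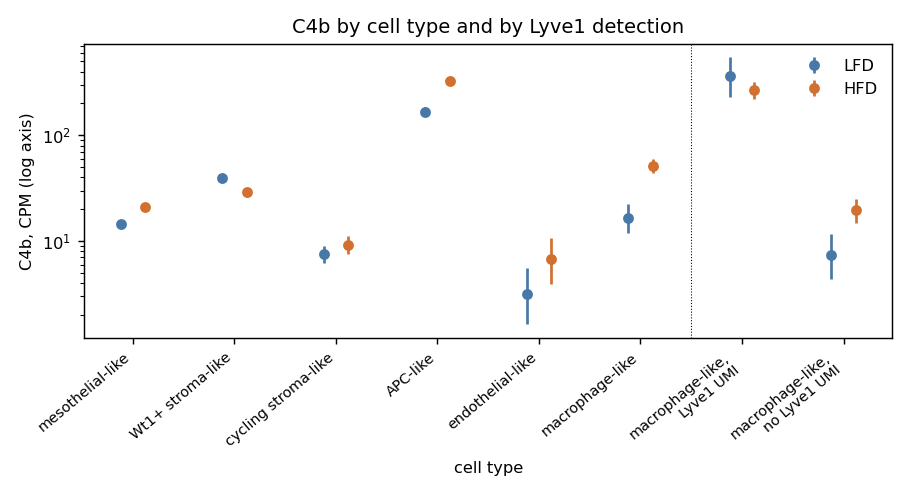
C4b in CPM on a log axis in 6 cell types and, right of the dotted line, in macrophage-like cells with and without a Lyve1 UMI, for LFD (blue) and HFD (orange) with 95% Poisson intervals. Cells with a Lyve1 UMI stood at 364 and 267 CPM, where APC-like cells had 167 and 327 CPM, and the others at 7.41 and 19.5 CPM.

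Factor D, the protease that cuts factor B, is made by Cfd at chr10:79890853-79892655 on the plus strand and is a product of mature adipocytes, which the preparation removes. Endothelial-like cells held 281 of the 364 Cfd counts in LFD and 22 of the 36 in HFD. The level there was 73.8 CPM (LFD, 65.4 to 83.0) and 8.68 CPM (HFD, 5.44 to 13.1), a ratio of 0.118 (0.0725 to 0.182). The 4 stromal types had at most 0.679 CPM, and the 14 counts in LFD neutrophil-like cells came from 7 cells. In LFD endothelial-like cells the 281 counts came from 86 of 660 cells.

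Those cells also carried adipocyte transcripts. All 10 adipocyte markers had counts in endothelial-like cells, and their summed level was 203 CPM in LFD and 168 CPM in HFD. Most of it was Car3 (92.2 CPM in LFD, 56.8 CPM in HFD) and Lipe (63.3 and 84.5 CPM). In LFD, Car3 had a UMI in 69.8% of endothelial-like cells with a Cfd UMI and in 10.3% of those without, Cidec in 32.6% and 1.05%, Retn in 26.7% and 1.92%, and Adipoq in 18.6% and 1.57%. Lipe, an intracellular lipase, had a UMI in 31.4% and 28.2% and so did not follow Cfd. In LFD the cells with a Cfd UMI were the shallower ones, with a median of 1993 UMIs against 4665, whereas in HFD the 16 cells with a Cfd UMI had a median of 3770 against 2915. Of the 281 LFD counts, 266 came from cells with a UMI of at least 1 adipocyte marker.

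In endothelial-like cells without such a UMI, Cfd was 7.21 CPM from 15 counts in LFD and 2.77 CPM from 4 counts in HFD, a ratio of 0.384 (0.0928 to 1.21) whose interval spans 1. Across the markers themselves the diet ratio was 0.264 (0.120 to 0.521) for Retn, 0.419 (0.201 to 0.809) for Adipoq, 0.563 (0.308 to 0.986) for Cidec, 0.616 (0.504 to 0.750) for Car3 and 1.33 (1.10 to 1.61) for Lipe. The other 5 markers had at most 13 counts in a library and intervals that spanned 1, with ratios of 0.693 for Plin4, 0.751 for Plin1 and for Acvr1c, 2.00 for Pck1 and 4.51 for Lep. The part of adipocyte RNA in the Cfd counts was not tested.

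**Figure D4:**
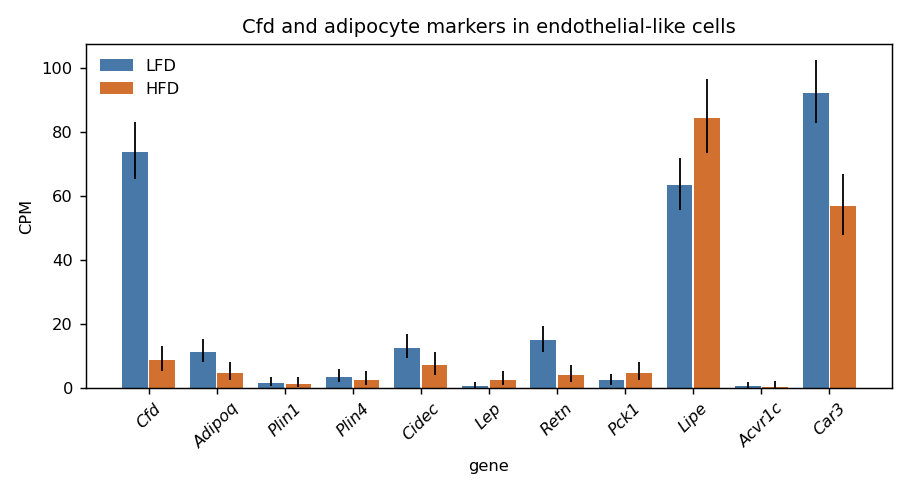
Cfd and the 10 adipocyte markers in endothelial-like cells, in CPM (bars from 0) with 95% Poisson intervals, LFD in blue and HFD in orange. Cfd went from 73.8 to 8.68 CPM, and of the 2 markers with the highest levels Car3 was lower and Lipe higher in HFD.

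The number of these genes at least 2-fold apart between diets was set beside the same share over all genes with at least 20 counts in a type. In macrophage-like cells 5 of 9 were, against 6.39% of all genes: C4b was higher and C1s1, C3, Cfb and Cfd were lower in HFD. The free RNA estimates of C3 and Cfb were lower in HFD too, as given above, and that of C1s1 went from 13.9 to 5.76 CPM while C1s1 itself was 22.5 and 9.947 CPM. After subtraction of the estimates the ratio was 0.490 for C1s1 and 0.618 for Cfb, so Cfb was no longer past 2-fold. With each cell typed by itself the ratios moved the other way, to 0.256 for C1s1 and 0.190 for Cfb. Cfd had 16 and 4 counts there, far above a collagen-based estimate that does not follow adipocyte RNA. Of the adipocyte markers, Car3 had 30 and 17 counts (ratio 0.413, 0.214 to 0.774) and Lipe 40 and 56 (1.02, 0.668 to 1.57). The other markers had at most 7 counts in a library. The part of adipocyte RNA in the Cfd difference was not tested. Under a stricter cell filter the 5 became 3 (C1s1, C3 and Cfb). The C1q chains, which these cells express most, were all inside 2-fold. In endothelial-like cells 3 of 8 were, C1qb and C4b higher and Cfd lower, against 8.45% of all genes. There C1qb rested largely on 1 cell, and C4b on 12 and 17 counts, with a ratio of 2.13 (0.958 to 4.88) that was 0.744 as a mean of per-cell CPM. In Wt1+ stroma-like cells 2 of 9 were (C1qa and Cfd, both at or below 1.13 CPM, and none at resolution 0.6 or under the stricter filter), against 6.95%, and in cycling stroma-like cells 1 of 7 (C1qa, 1.59 CPM in LFD), against 5.25%. The ratio of C1qa in cycling stroma-like cells was 0.361 and turned to 1.38 without doublet removal. None of 8 was past 2-fold in mesothelial-like cells and none of 5 in APC-like cells, against 5.18% and 9.59%. In the stromal types the genes past 2-fold were thus ones measured at under 2 CPM, and C4b in APC-like cells, at 1.95, was the nearest below that fold.

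**Figure D5:**
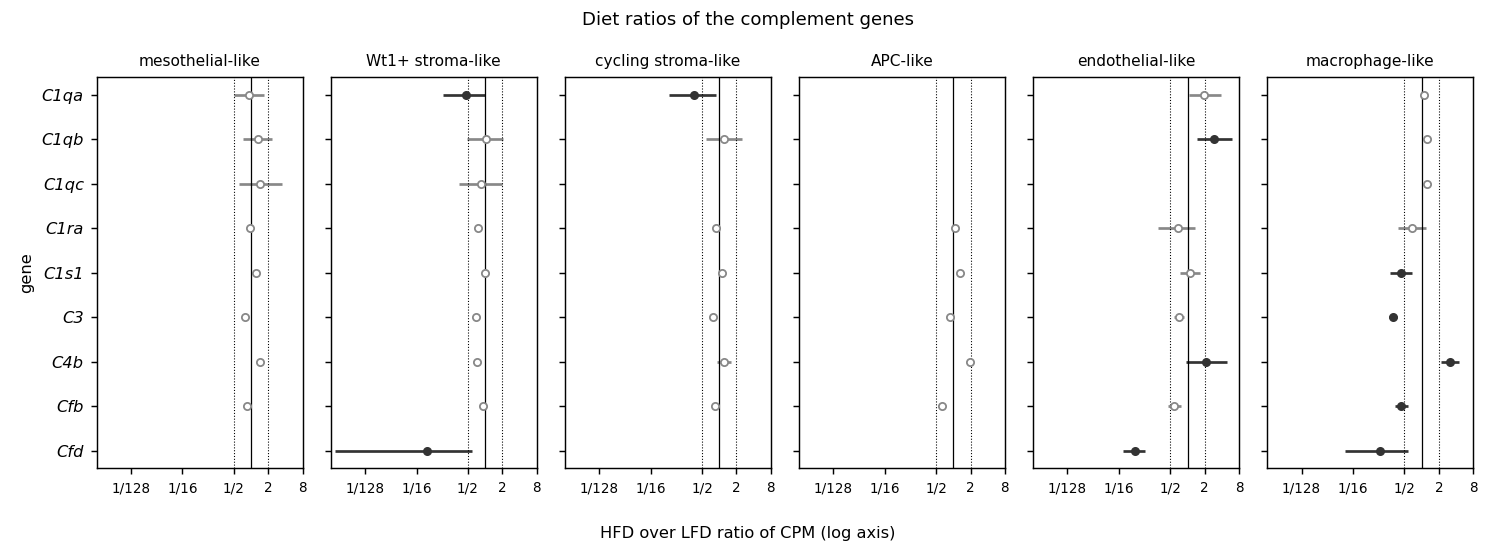
HFD to LFD ratio of CPM (log axis) of each gene in 6 cell types, with exact 95% intervals for counting error. Filled points are at least 2-fold apart, dotted lines mark that fold, and genes under 20 counts in a type are not drawn. C4b stood at 3.13 in macrophage-like and 1.95 in APC-like cells but at 0.729 in Wt1+ stroma-like cells, and Cfd at 0.118 in endothelial-like cells.

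The lists of other complement genes, 56 genes in all with the 9 above, were read in the same way. C2, the partner of C4, stood at 63.3 and 49.2 CPM in APC-like, 63.2 and 50.3 CPM in Wt1+ stroma-like and 54.7 and 55.9 CPM in mesothelial-like cells. Serping1, which codes for the C1 inhibitor, was highest in APC-like cells (3193 CPM in LFD, 2971 CPM in HFD) and was lower in HFD Wt1+ stroma-like cells (1711 and 1029 CPM, ratio 0.601, 0.591 to 0.612). Macrophage-like cells had Cfp, the gene of properdin, at 367 and 332 CPM, and the receptor genes C3ar1 at 450 and 479 CPM and C5ar1 at 452 and 511 CPM. Neutrophil-like cells had more C5ar1, at 609 and 664 CPM, with intervals that overlapped those of macrophage-like cells in HFD. Cd93 was highest in endothelial-like cells, at 793 and 951 CPM, and was also present in macrophage-like cells (239 and 204 CPM) and in the mural-like cluster with its endothelial markers (260 and 542 CPM).

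Among the regulators, 4 of 9 tested in APC-like cells were past 2-fold, Cd55 and Cd59b higher and Clu and Vtn lower, against 9.59% of all genes, and the median ratio of the 9 was 1.33 against 1.08 over all genes with at least 20 counts over both libraries. Cd59b rested on 2 and 18 counts, and the interval of its ratio (0.816 to 30.3) spanned 1. Cd55, a brake on the C3-cleaving enzymes, went from 97.7 to 232 CPM there (ratio 2.38, 2.06 to 2.75). Clu, which codes for clusterin, was lower in HFD in all 6 types, with ratios of 0.233 in macrophage-like, 0.336 in endothelial-like, 0.393 in APC-like, 0.429 in Wt1+ stroma-like, 0.430 in cycling stroma-like and 0.594 in mesothelial-like cells. The free RNA estimate of Clu moved as well. It went from 44.9 to 7.73 CPM in macrophage-like cells, where Clu itself was 37.7 and 8.78 CPM, and from 176 to 12.96 CPM in APC-like cells, where Clu was 110 and 43.3 CPM. In endothelial-like cells the estimate went from 31.4 to 10.8 CPM, where Clu was 72.8 and 24.5 CPM. In the other 3 stromal types Clu was at least 386 CPM against estimates of at most 30.4 CPM. In macrophage-like cells the receptor gene Vsig4 went from 5 to 97 counts (ratio 14.1, 5.86 to 44.6) and Fcna, a ficolin of the lectin pathway, from 18.1 to 152 CPM (ratio 8.41, 6.20 to 11.7). Over all 56 genes, the number past 2-fold of those tested was 9 of 29 in macrophage-like cells (against 6.39% of all genes), 6 of 18 in endothelial-like (8.45%), 5 of 31 in Wt1+ stroma-like (6.95%), 4 of 20 in APC-like (9.59%), 2 of 23 in cycling stroma-like (5.25%) and 1 of 32 in mesothelial-like cells (5.18%), so the last 2 counts were near the share of all genes. Those not named above were Serping1 in macrophage-like (ratio 0.277) and endothelial-like cells (0.442), C1qbp in endothelial-like cells (0.496), C1rb (0.289) and Cd93 (0.465) in Wt1+ stroma-like cells, and C1s2 in mesothelial-like cells (0.445).

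For each gene the profile over 29 combinations of type and library was compared with those of 12717 genes, as a description over points that share libraries. C1qa was most like Nxpe5, Mmp12 and Fcgr1 (Pearson r 0.967 to 0.972), and C1qb and C1qc shared Ccl12, Cbr2 and Folr2 (0.939 to 0.957). C1ra was most like Col3a1, Col1a1 and Dcn (0.969 to 0.973), C1s1 like Gas1, Col5a2 and Lhfp (0.976 to 0.980), C3 like Dhx58os, Lox and Rhou (0.956 to 0.967), and Cfb like Wt1, Gfpt2 and Timp1 (0.961 to 0.969). C4b was most like Ctsk, Adam33 and Sphk1 (0.909 to 0.921), and Cfd was the least matched, with Lrg1, Cyyr1 and Grrp1 at 0.867 to 0.889.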

How the data were processed

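For each gene and cell barcode the deposited matrices gave whole UMI counts, not normalized, produced by the authors with Cell Ranger 4.0.0 on mm10 per the labels. The submitters' processing notes also name Seurat 4.1.0, bcl2fastq 2.17.1.14 and STAR. The other deposited files, which hold no measurement, gave the gene and barcode names. Of 32285 gene IDs, 32158 were found in GENCODE M21 (GRCm38), from which gene positions were taken. Promoter windows were read from RefSeq (GRCm38.p6).

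Cell limits followed the study's methods: 500 to 40000 UMIs, under 12.5% mitochondrial UMIs and at least 100 genes. Of 11281 LFD and 9631 HFD barcodes (114311020 and 119498750 UMIs), 10216 and 8537 passed. Doublets were removed by Scrublet score (scanpy 1.11.5) at 0.8% per 1000 barcodes, 922 LFD and 658 HFD cells. Anchor integration in Seurat 5.3.0 (R 4.3.3) used 2000 variable genes less complement genes, so 1976, and clustering used 30 principal components at resolution 0.3. A marker counted as high where at least 10% of a cluster's cells had a UMI and its CPM exceeded 2 times that of the median cluster. Of 16 clusters, 1 stayed unnamed.

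Counts were summed per type and library. CPM have exact Poisson intervals, shares Clopper-Pearson intervals, and HFD to LFD ratios, computed where both libraries had 50 or more cells of a type, exact conditional binomial intervals, all at 95%. The ratio step was run on simulated Poisson counts, which follow the model that its interval assumes. Variation among mice, sorts or libraries is not in the intervals. Called means at least 2-fold, with at least 20 counts over both libraries. The free RNA estimate is the CPM of Ighm, Igkc and Jchain (for stromal types) or Col1a1, Col1a2, Col3a1 and Dcn (for other types) in a type over that in the whole library, times the gene's CPM in the whole library. All 9 genes are described in every type, other complement genes at 50 CPM or more by value, and for likeness the 3 genes outside the complement lists with the highest Pearson r of log2(CPM + 1) among genes at 10 CPM or more in a profile. The genes, lists and markers, and the Lyve1 split, were chosen with earlier results of these data known. Some genes past 2-fold were also named under 50 CPM, after their values were seen. Alternatives covered doublets, resolution, a stricter cell filter, cells typed singly, per-cell means, scaling, free RNA and the count minimum.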

Additional observations from a re-analysis of the deposited data

Results flagged for a closer look

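C4b differed in opposite directions between types. Its HFD to LFD ratio was 3.13 in macrophage-like cells, 1.95 in APC-like cells and 1.46 in mesothelial-like cells, and 0.729 in Wt1+ stroma-like cells, with counting intervals above 1 in the first 3 types and below 1 in the last. The macrophage-like ratio was 4.29 times the Wt1+ stroma-like ratio. With 1 library per diet the difference was not tested, and it was not seen for any other of the 9 genes where the level was over 2 times the free RNA estimate in both libraries.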

How the results depend on the processing

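Of 57 recomputed counts, 41 stayed within 1.5 times. The number of the 9 genes past 2-fold moved as follows. In Wt1+ stroma-like cells it went from 2 to 0 at resolution 0.6, to 0 under the stricter cell filter (at least 1000 UMIs and under 5% mitochondrial UMIs) and with a minimum of 50 counts, and to 1 with free RNA subtracted. In cycling stroma-like cells it went from 1 to 0 under the stricter filter, with free RNA subtracted and with a minimum of 50 counts, and to 2 without doublet removal and with no minimum above 1 count. In APC-like cells it went from 0 to 2 without doublet removal (C1qc and C4b, the latter at 2.06) and with no minimum above 1 count, and in mesothelial-like cells from 0 to 1 with that minimum. In endothelial-like cells it went from 3 to 5 with free RNA subtracted, to 1 with a minimum of 50 counts and to 6 with each cell typed by itself. In macrophage-like cells it went from 5 to 3 under the stricter filter, which kept 25.4% of LFD and 28.8% of HFD macrophage-like cells and left C4b under 20 counts. The changes with the count minimum and the stricter filter come with fewer or more genes tested; for the others the cause was not tested.

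Of 282 single ratios, 206 stayed inside the interval of the reported value and 19 lay on the other side of 1 from it. Of ratios reported past 2-fold, 2 turned direction: C1qa in cycling stroma-like cells was 1.38 without doublet removal, against 0.361, and C4b in endothelial-like cells was 0.744 as a mean of per-cell CPM, against 2.13. With median-ratio scaling, 2 ratios changed side of 1, and genes with at least 20 counts in each library had median ratios of 1.04 to 1.12 in the 6 types before it. C1qa in macrophage-like cells was 0.932 under the stricter filter and 1.28 with each cell typed by itself. C3 in macrophage-like cells was 0.159 with each cell typed by itself, and in endothelial-like cells it was 2.38 with free RNA subtracted, against 0.712. Cfd in endothelial-like cells ranged from 0.0611 to 0.118 over the other processing choices. With no minimum above 1 count, 2747 to 4183 genes were past 2-fold in the 6 types, against 625 to 1075, and with a minimum of 50 counts 261 to 620. No paired analysis was possible because each diet had 1 library.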

Other observations

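The cluster that stayed unnamed held 59 LFD and 70 HFD cells with medians of 1126 and 785 UMIs. Its C3 level was 1226 CPM (LFD, 1038 to 1439) and 922 CPM (HFD, 713 to 1173), its Cfb level 482 and 433 CPM, and its C1s1 level 213 and 209 CPM, and no C1q count was found in either library. In the mural-like cells, 12 in LFD and 68 in HFD, C3 was 583 CPM from 47 counts and 37.3 CPM from 17 counts, beside free RNA estimates of 602 and 160 CPM. Cfd had 6 counts there in LFD and 2 in HFD.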
